A study of Mus musculus with 9 samples.

Results

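The collagen genes of mouse mammary tumour organoids were compared between organoids with a floxed and with a normal gene for E-cadherin. Members were every gene of the deposited count table whose symbol has the form of a collagen chain, Col followed by a type number, the letter a and a chain number. This gave 44 of 51912 genes, of which 11 encode fibrillar collagens, 6 basement membrane collagens and 27 other collagens. Of the 44, 36 passed the filter on low counts and were tested.

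Organoids are small pieces of epithelium, here taken from the breast tumours that the MMTV::PyMT transgene, a viral oncogene behind a mammary promoter, causes in mice. The 5 E-cad-KO libraries came from Cdh1fl/fl mice, whose gene for E-cadherin can be deleted by Cre, and the 4 WT libraries from Cdh1+/+ mice. Both groups were FVB/NJ, carried MMTV::PyMT and (R26)pCA::mT/mG, a fluorescent reporter of Cre activity, and were exposed overnight to adeno-Cre, a virus that delivers Cre recombinase. All organoids then grew for 48 h in gels of collagen I with FGF2, and whole gels were frozen for RNA. The virus is not restricted to a cell type, and any other cells of the tumour pieces also contribute RNA. In such bulk samples fewer cells of a type and less RNA per cell cannot be told apart. The design text calls the samples biological replicates, but neither ages nor the animal behind each library are stated, so that p-values cover only the spread among these libraries.

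Collagens are trimers of chains that wind into a triple helix. Fibrillar collagens build the rope-like fibrils of connective tissue and are made mostly by fibroblasts. Type IV collagen forms the sheet-like network of the basement membrane beneath epithelium, and other collagens coat fibrils, anchor epithelium to its base or span the cell membrane. In breast tumours dense fibrillar collagen is laid down around the epithelium, and invading cells move along it. The collagen of the gels is protein and adds no RNA.

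Library totals ran from 44890302 to 64763645 counts, and 1 CPM (the usual depth-scaled count, on library sizes scaled by edgeR's TMM factors) stood for 44.2 to 64.3 counts. Cdh1, the targeted gene, was at 91.3 ± 15.5 CPM in the E-cad-KO libraries (SD, n = 5) and 189 ± 44.1 CPM in WT (SD, n = 4), with no overlap (log2 fold change -1.05, edgeR adjusted p = 0.0275). Markers of epithelium were abundant, with luminal markers summing to 4141.7 to 5292.9 CPM in E-cad-KO and 3575.2 to 4811.4 CPM in WT. Leaving out 1 library at a time gave Cdh1 log2 fold changes of -1.16 to -0.89 (edgeR adjusted p of 0.0231 to 0.0904), past the threshold without E-cad-KO 2, WT 1, WT 2 or WT 4 and short of it without any other library. Among the WT libraries, WT 1 and WT 4 were most often the lowest or highest for markers of fibroblasts, macrophages and myoepithelium. Without WT 1 the log2 fold change of 6 of 36 collagens turned sign, and without WT 4 that of 8 of 36.

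No collagen gene was called higher or lower in E-cad-KO organoids. Of 36 tested collagens, 15 had a positive and 21 a negative log2 fold change, with a median of -0.04 beside -0.01 over all 17289 tested genes. By edgeR's quasi-likelihood test 0 of 36 passed an adjusted p of 0.05, where 1.41% of all tested genes did. Higher in E-cad-KO were 0 of 36 collagens and 0.908% of all tested genes, and lower were 0 of 36 and 0.503%. At an unadjusted p under 0.05 stood 2 collagens, Col18a1 and Col9a1, a share of 36 below the 16.7% of all tested genes. DESeq2 called 1 collagen, Col18a1, where it called 6.51% of all tested genes, and limma-voom called 0. Collagen transcripts together made up 0.135% to 0.17% of counts in E-cad-KO libraries and 0.124% to 0.175% in WT libraries. The classes are described in turn below, with the spread within WT after them.

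**Figure D1:**
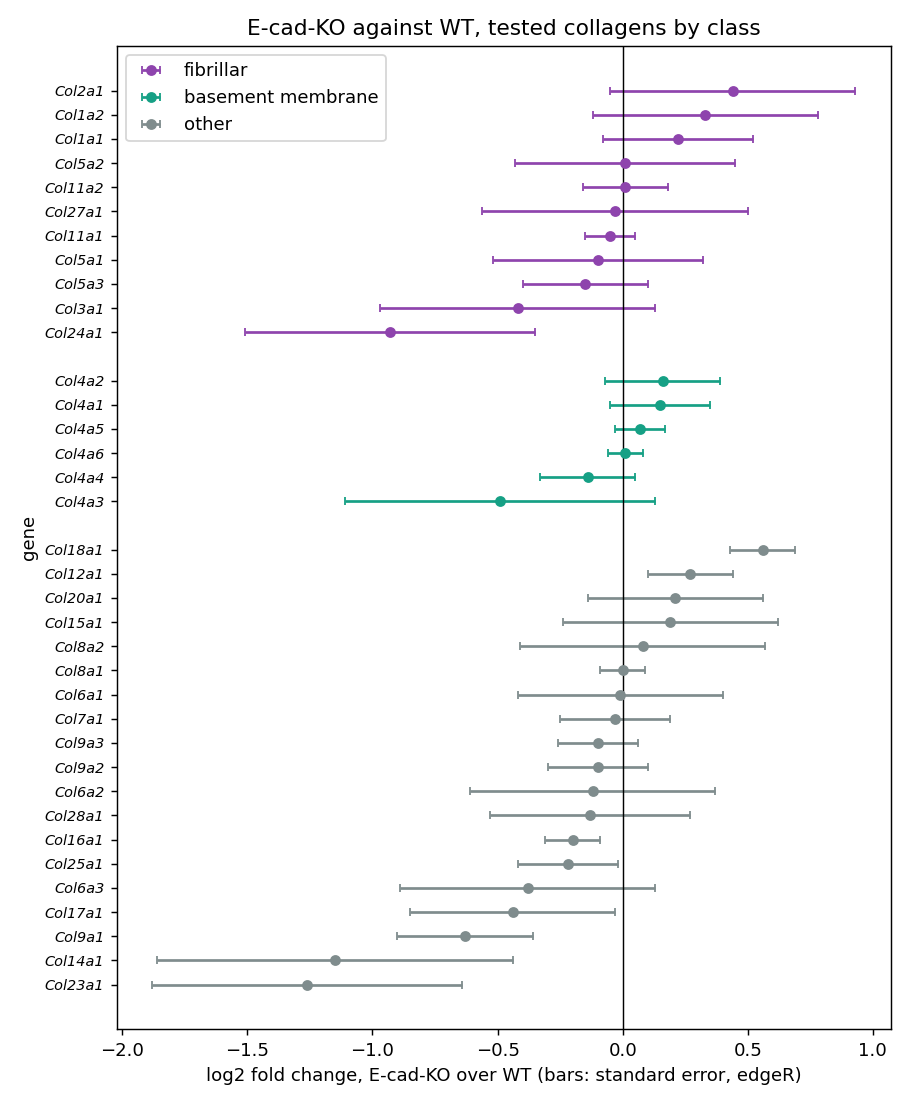
Each point is the log2 fold change of 1 tested collagen, E-cad-KO over WT, with its standard error from edgeR as the bar, grouped by class. Col18a1 lies highest at 0.56 and Col23a1 lowest at -1.26, and none passed an adjusted p of 0.05.

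The most abundant collagen per length was Col18a1, and the most abundant fibrillar collagen was not a chain of type I. Levels between genes are given as CPM per kilobase of the longest annotated transcript, averaged over the 9 libraries. On this scale Col18a1 averaged 28.6, followed by Col16a1 at 23.3, Col11a1 and Col9a3 at 21.4 each and Col9a1 at 21.3. Col17a1 stood at 16.9, Col4a5 at 15.3, Col7a1 at 13.3 and Col4a6 at 10.5. Col1a2 and Col1a1, the chains of type I collagen, averaged 4.71 and 4.04 CPM per kilobase. With the union of all annotated exons as the length Col11a1 stood at 12.9 CPM per kilobase, still above Col5a2 at 6.68, the next fibrillar chain.

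**Figure D2:**
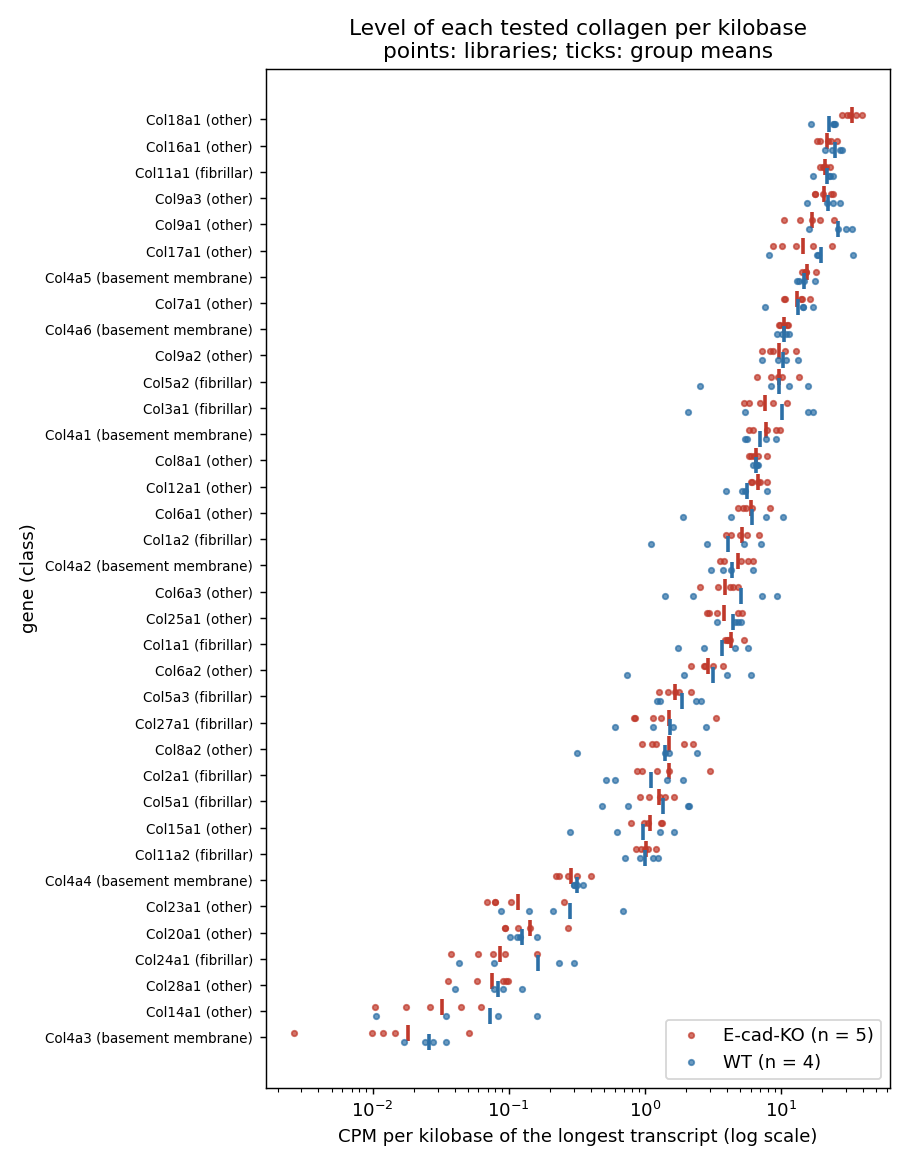
Points are single libraries and ticks group means of CPM per kilobase of the longest transcript on a log scale, E-cad-KO above WT in each row, for the 36 tested collagens in order of level. Col18a1 is at the top with group means of 33.3 in E-cad-KO and 22.6 in WT, and Col4a3 at the bottom.

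Among the fibrillar collagens 11 of 11 were tested, 5 with a positive and 6 with a negative log2 fold change, and their median was -0.03. Col11a1 (GRCm38 chromosome 3, 114030540 to 114220718) encodes a chain of type XI collagen, which in cartilage sits in the core of thin fibrils. It held 176.1, 165.7, 149.7, 158.5 and 156.9 CPM in E-cad-KO 1 to 5, against 132.0, 186.6, 174.1 and 176.0 CPM in WT 1 to 4. All E-cad-KO libraries lay inside the WT range, and the lowest value was that of WT 1. Its log2 fold change came to -0.05 (edgeR adjusted p = 0.85, SE 0.10). The partner chain gene Col11a2 was far lower, at 6.15 ± 0.767 CPM in the E-cad-KO libraries (SD, n = 5) and 6.12 ± 1.43 CPM in WT (SD, n = 4).

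The genes of the classical stromal fibrils were more spread within WT than Col11a1. Col3a1, the chain of type III collagen of soft tissues (chromosome 1, 45311538 to 45349706), held 39.1, 30.1, 61.8, 32.5 and 48.5 CPM in E-cad-KO 1 to 5, against 11.5, 30.4, 88.3 and 96.0 CPM in WT 1 to 4. Every E-cad-KO library lay between the lowest and the highest WT library. WT 4 held 8.36 times as much as WT 1, while the highest E-cad-KO library held 2.05 times the lowest. The log2 fold change came to -0.42 (edgeR adjusted p = 0.771, SE 0.55). An exon of Gm47302 overlaps the gene on the same strand, so reads there are uncertain. It was -0.75 without WT 1 and -0.04 without WT 4.

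Col1a2 (chromosome 6, 4504814 to 4541544), the second chain of type I collagen, held 26.7, 21.3, 37.2, 23.1 and 30.0 CPM in E-cad-KO 1 to 5, against 5.96, 15.4, 38.0 and 28.8 CPM in WT 1 to 4. WT 1 and WT 2 were below every E-cad-KO library, and WT 3 was above all of them. Its log2 fold change came to 0.33 (edgeR adjusted p = 0.783, SE 0.45), and 0.02 without WT 1. Col1a1, the other type I chain, held 23.7, 25.3, 31.6, 23.1 and 24.3 CPM in E-cad-KO 1 to 5, against 10.4, 16.1, 33.9 and 27.4 CPM in WT 1 to 4. It followed the same order of WT libraries as Col1a2, with a log2 fold change of 0.22 (SE 0.30), which was -0.01 without WT 1.

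Col5a2, a chain of type V collagen, which joins type I collagen and limits the width of fibrils, held 63.1, 44.5, 68.0, 56.5 and 89.8 CPM in E-cad-KO 1 to 5, against 16.9, 56.3, 76.3 and 105.6 CPM in WT 1 to 4. The log2 fold change came to 0.01 (edgeR adjusted p = 0.994, SE 0.44), -0.30 without WT 1 and 0.37 without WT 4. Its partner Col5a1, whose exons overlap 2810430I11Rik and Gm13372 on the other strand, stood at 10.6 ± 2.33 CPM in the E-cad-KO libraries (SD, n = 5) and 11.4 ± 7.27 CPM in WT (SD, n = 4). Col5a3 stood at 10.3 ± 2.15 CPM in the E-cad-KO libraries (SD, n = 5) and 11.5 ± 4.36 CPM in WT (SD, n = 4).

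The remaining fibrillar genes were low. Col2a1, the main fibrillar collagen of cartilage, held 15.3, 6.3, 4.86, 4.49 and 7.68 CPM in E-cad-KO 1 to 5, against 3.09, 2.63, 7.43 and 9.69 CPM in WT 1 to 4. E-cad-KO 1 was the highest library, and the groups overlapped (log2 fold change 0.44, SE 0.49, edgeR adjusted p = 0.715). Without E-cad-KO 1 the log2 fold change was 0.03, and without WT 4 it was 0.82. Col27a1, a cartilage collagen, was likewise highest in E-cad-KO 1 with 25.6 CPM, the other E-cad-KO libraries being between 6.39 and 10 CPM and the WT libraries between 4.57 and 21.3 CPM. Col24a1, whose transcripts are known from developing bone and eye, held 0.544, 0.422, 0.271, 0.676 and 1.15 CPM in E-cad-KO 1 to 5, against 0.306, 0.558, 1.67 and 2.17 CPM in WT 1 to 4 (log2 fold change -0.93, SE 0.58, edgeR adjusted p = 0.466). The high WT values of Col24a1 came from WT 3 and WT 4, and without WT 4 its log2 fold change was -0.45.

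The promoters of Col1a2 and Col3a1 are shown because these genes had the same order of E-cad-KO libraries, and both were lowest in WT 1, while their start regions differ in composition. Each window reaches from 250 bases before to 50 bases after the RefSeq start on GRCm38.p6 and reads 5′ to 3′ on the strand of the gene, with capitals for the TATA box TATAAA, the box known as CCAAT and the GC box GGGCGG, each searched on both strands. The Col1a2 window is chr6:4505368-4505667 (plus strand) and the Col3a1 window chr1:45311288-45311587 (plus strand).
Col1a2: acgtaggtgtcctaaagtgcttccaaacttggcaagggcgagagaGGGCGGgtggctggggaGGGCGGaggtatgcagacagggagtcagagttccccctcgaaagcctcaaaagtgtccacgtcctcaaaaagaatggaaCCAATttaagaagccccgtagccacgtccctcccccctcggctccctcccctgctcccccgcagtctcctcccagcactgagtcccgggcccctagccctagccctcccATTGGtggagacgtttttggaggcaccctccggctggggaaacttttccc
Col3a1: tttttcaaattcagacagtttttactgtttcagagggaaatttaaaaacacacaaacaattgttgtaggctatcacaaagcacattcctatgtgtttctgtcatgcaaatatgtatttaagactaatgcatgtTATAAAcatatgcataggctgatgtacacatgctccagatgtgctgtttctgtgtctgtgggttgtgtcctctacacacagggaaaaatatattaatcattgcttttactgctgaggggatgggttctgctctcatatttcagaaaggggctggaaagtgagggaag
The Col1a2 window is 61.0% G and C and holds 2 matches of GGGCGG, 2 of CCAAT and 0 of TATAAA. The Col3a1 window is 37.7% G and C and holds 1 match of TATAAA and 0 of the other motifs. Over all 32851 windows of the table TATAAA is found in 13.6%, CCAAT in 37.4% and GGGCGG in 35.7%, and over the 38 collagen windows in 13.2%, 34.2% and 60.5%. The collagen windows belong to 35 of the 44 genes, and some genes have more than 1 window. They were also richer in G and C, with a median of 59.9% beside 52.7% over all windows. The part of this in the GGGCGG share was not tested. A match is a description of letters and not a site of binding.

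No type IV collagen gene was called, and the class was less spread within WT than the fibrillar class. Of 6 basement membrane genes 6 were tested, 4 with a positive and 2 with a negative log2 fold change, and their median was 0.04. Col4a5 (chromosome X, 141475385 to 141689234) and Col4a6 (chromosome X, 141165403 to 141474076) encode chains found in the basement membranes of skin and smooth muscle, where they assemble with each other. Col4a5 held 94.2, 118.8, 99.7, 99.2 and 100.4 CPM in E-cad-KO 1 to 5, against 97.0, 116.5, 86.4 and 89.2 CPM in WT 1 to 4. E-cad-KO 2 and WT 2 were the highest libraries of their groups (log2 fold change 0.07, SE 0.10, edgeR adjusted p = 0.763).

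Col4a6 held 74.3, 75.4, 70.4, 64.7 and 65.9 CPM in E-cad-KO 1 to 5, against 67.5, 76.1, 73.1 and 62.3 CPM in WT 1 to 4. It was among the steadiest collagens, its highest WT library holding 1.22 times the lowest, with a log2 fold change of 0.01 (SE 0.07, edgeR adjusted p = 0.972). Per kilobase Col4a5 and Col4a6 averaged 15.3 and 10.5 CPM over the 9 libraries, above the common type IV chains Col4a1 at 7.48 and Col4a2 at 4.65. The ratio of Col4a5 to Col4a1 was 1.55 to 2.59 in E-cad-KO and 1.48 to 3.24 in WT.

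Col4a1 and Col4a2 encode the chains of the common type IV network present in nearly all basement membranes. They lie head to head on chromosome 8, as Cdh1 does, at 11198423 to 11312826 and 11312805 to 11449287, and the annotated genes share 22 bases. Col4a1 held 60.8, 52.8, 65.1, 38.7 and 41.0 CPM in E-cad-KO 1 to 5, against 37.4, 36.4, 51.8 and 61.0 CPM in WT 1 to 4. Col4a2 held 36.8, 32.8, 40.3, 22.9 and 24.8 CPM in E-cad-KO 1 to 5, against 24.2, 19.7, 28.0 and 40.6 CPM in WT 1 to 4. Both genes were highest in E-cad-KO 3 and WT 4 within their groups and lowest in E-cad-KO 4 and WT 2.

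Neither gene of the pair was called. The log2 fold change was 0.15 for Col4a1 (SE 0.20, edgeR adjusted p = 0.781) and 0.16 for Col4a2 (SE 0.23, edgeR adjusted p = 0.787). Without WT 4, the highest WT library of both, these were 0.30 and 0.39. The ratio of Col4a1 to Col4a2 per kilobase was 1.57 to 1.65 in E-cad-KO and 1.46 to 1.81 in WT. Its highest value over the 9 libraries was 1.23 times its lowest, while the levels of each gene varied more. For Col1a1 and Col1a2 the ratio per kilobase was 0.73 to 1.07 in E-cad-KO and 0.804 to 1.58 in WT, the highest being 2.16 times the lowest. Of other pairs, the highest ratio was 1.33 times the lowest for Col4a5 to Col4a6. It was 1.5 times for Col6a1 to Col6a2, 2 genes on the minus strand. For Col5a1 to Col5a2 it was 2.17 times and for Col9a1 to Col9a3 2.3 times. An unstranded count could not tell reads of Col4a1 from those of Col4a2 in the shared first-exon bases. Whether counting used the strand is not given in the sources used here.

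The start regions of Col4a1 and Col4a2 are shown because this pair is transcribed in opposite directions from the same stretch. The other type IV pairs also lie head to head, with 71 bases between the annotated genes Col4a3 and Col4a4 and 1308 between Col4a5 and Col4a6. A steady ratio was not particular to Col4a1 and Col4a2, and a link to the shared start was not tested. The windows are chr8:11312777-11313076 (minus strand, Col4a1) and chr8:11312555-11312854 (plus strand, Col4a2), drawn by the same limits and with the same use of capitals.
Col4a1: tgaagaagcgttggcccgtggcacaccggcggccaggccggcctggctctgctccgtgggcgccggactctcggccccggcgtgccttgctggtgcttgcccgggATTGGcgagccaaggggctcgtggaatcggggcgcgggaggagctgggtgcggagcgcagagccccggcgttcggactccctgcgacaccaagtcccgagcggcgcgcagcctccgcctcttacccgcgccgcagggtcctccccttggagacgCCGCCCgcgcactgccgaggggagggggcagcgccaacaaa
Col4a2: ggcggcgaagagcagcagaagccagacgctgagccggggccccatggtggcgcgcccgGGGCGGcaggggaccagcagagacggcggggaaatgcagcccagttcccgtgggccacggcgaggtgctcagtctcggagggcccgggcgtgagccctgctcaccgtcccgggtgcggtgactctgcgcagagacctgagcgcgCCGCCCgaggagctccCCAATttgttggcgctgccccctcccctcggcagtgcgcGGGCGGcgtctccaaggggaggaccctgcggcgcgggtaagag
They share 78 bases, which each shows on its own strand. Both are rich in G and C (74.0% and 73.7%, beside a median of 52.7% over all windows). The Col4a1 window holds 1 match each of CCAAT and GGGCGG, and the Col4a2 window 1 of CCAAT and 3 of GGGCGG. Neither holds TATAAA.

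Col4a3 and Col4a4, chains of the kidney and lung network, were low. Col4a4 held 4.04, 3.19, 2.35, 2.25 and 2.77 CPM in E-cad-KO 1 to 5, against 3.53, 3.23, 3.07 and 3.03 CPM in WT 1 to 4. It was steady within WT, and 3 E-cad-KO libraries lay below every WT library while E-cad-KO 1 lay above them (log2 fold change -0.14, SE 0.19, edgeR adjusted p = 0.779). Col4a3, overlapping C430014B12Rik on the other strand, held 0.439, 0.0845, 0.0226, 0.102 and 0.124 CPM in E-cad-KO 1 to 5, against 0.238, 0.207, 0.295 and 0.146 CPM in WT 1 to 4. E-cad-KO 1 was above all WT libraries and the other E-cad-KO libraries were below all of them (log2 fold change -0.49, SE 0.62, edgeR adjusted p = 0.756), with 1 to 25 counts per library behind these values.

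Col18a1 came nearest to a call. It encodes the multiplexin collagen XVIII of basement membranes, which carries heparan sulfate chains and whose last part can be released as endostatin (chromosome 10, 77052178 to 77166548). It held 221.5, 171.9, 201.2, 158.1 and 180.3 CPM in E-cad-KO 1 to 5, against 93.9, 139.9, 138.2 and 134.9 CPM in WT 1 to 4. Every E-cad-KO library was above every WT library, and Col18a1 was the 1 collagen of 36 whose groups did not overlap, where 8.11% of all tested genes had groups apart (4.28% with E-cad-KO higher and 3.83% with E-cad-KO lower). The log2 fold change came to 0.56 (edgeR adjusted p = 0.0721, SE 0.13), a fold of 1.47. Over the alternatives its log2 fold change ran from 0.43 to 0.61 and was positive in each.

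It passed the threshold with DESeq2 (adjusted p = 0.00257) and with a fibroblast marker score as a covariate in edgeR (adjusted p = 0.03). Without WT 1, its lowest library, the log2 fold change was 0.44 (edgeR adjusted p = 0.0795). Counts over the whole gene cannot separate the transcripts that begin at the 2 starts shown here, chr10:77166481-77166780 and chr10:77113656-77113955 (both minus strand), printed because the gene stood first in level and had the highest positive fold change.
Col18a1, first start: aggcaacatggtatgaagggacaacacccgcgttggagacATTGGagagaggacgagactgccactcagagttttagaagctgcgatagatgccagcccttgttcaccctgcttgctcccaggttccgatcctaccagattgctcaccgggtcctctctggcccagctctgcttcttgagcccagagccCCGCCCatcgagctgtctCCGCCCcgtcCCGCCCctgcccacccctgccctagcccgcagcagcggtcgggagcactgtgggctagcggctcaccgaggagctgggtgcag
Col18a1, second start: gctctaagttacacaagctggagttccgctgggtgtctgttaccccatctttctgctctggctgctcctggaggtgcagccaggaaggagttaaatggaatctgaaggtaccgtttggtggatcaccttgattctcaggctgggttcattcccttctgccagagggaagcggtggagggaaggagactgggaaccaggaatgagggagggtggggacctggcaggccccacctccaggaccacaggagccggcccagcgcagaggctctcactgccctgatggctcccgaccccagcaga
The window at the first start holds 3 matches of GGGCGG and 1 of CCAAT, and that at the second start holds 0 of the 3 motifs.

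Col15a1, the other multiplexin and also a basement membrane collagen, overlaps Gm12426 on the other strand. It stood at 5.68 ± 1.18 CPM in the E-cad-KO libraries (SD, n = 5) and 4.99 ± 3.22 CPM in WT (SD, n = 4), with a log2 fold change of 0.19 (SE 0.43) that turned to -0.11 without WT 1. With both multiplexins counted among the basement membrane genes the median of that class was 0.11.

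Of the fibril-associated collagens, which sit on the surface of fibrils and link them to their surroundings, 7 of 9 were tested. Col9a1 (chromosome 1, 24177610 to 24252684), a chain of type IX collagen of cartilage and the eye, held 74.5, 53.3, 40.6, 65.1 and 94.1 CPM in E-cad-KO 1 to 5, against 62.1, 100.4, 128.2 and 116.1 CPM in WT 1 to 4. All WT libraries but WT 1 were above every E-cad-KO library. Its log2 fold change was -0.63 (SE 0.27), with an unadjusted p of 0.0419 and an edgeR adjusted p = 0.275. It was negative under each alternative, between -0.80 and -0.50, and the lowest adjusted p among them was 0.0984.

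The other type IX chains differed less. Col9a3, which overlaps Tcfl5 on the other strand, held 73.8, 54.7, 54.0, 62.0 and 71.2 CPM in E-cad-KO 1 to 5, against 47.5, 66.6, 74.1 and 82.7 CPM in WT 1 to 4 (log2 fold change -0.10, SE 0.16, edgeR adjusted p = 0.815). Col9a2 stood at 28.1 ± 6.62 CPM in the E-cad-KO libraries (SD, n = 5) and 30.1 ± 7.63 CPM in WT (SD, n = 4). The ratio of Col9a1 to Col9a3 per kilobase was 0.597 to 1.05 in E-cad-KO and 1.04 to 1.37 in WT, so the groups met at E-cad-KO 5 and WT 1.

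Col16a1, a fibril-associated collagen found near basement membranes, was the second most abundant collagen per length. It held 133.7, 116.1, 121.4, 96.8 and 101.0 CPM in E-cad-KO 1 to 5, against 124.2, 145.8, 142.9 and 110.3 CPM in WT 1 to 4. The groups overlapped, with E-cad-KO 4 and 5 below every WT library (log2 fold change -0.20, SE 0.11, edgeR adjusted p = 0.401). Col12a1, which bridges fibrils in tissues under strain, stood at 78.3 ± 8.72 CPM in the E-cad-KO libraries (SD, n = 5) and 64.8 ± 19 CPM in WT (SD, n = 4), with a log2 fold change of 0.27 (SE 0.17). Without WT 1, its highest WT library at 91.0 CPM, its log2 fold change was 0.49, and 0.14 without WT 4. Col14a1 and Col20a1 averaged under 1 CPM in both groups.

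Collagens of the epithelial anchor were highest in WT 1 and lowest in WT 4 of the WT libraries. Col17a1, a transmembrane collagen of hemidesmosomes, the rivets that fix basal epithelium to its base, held 72.7, 96.3, 132.6, 57.0 and 49.1 CPM in E-cad-KO 1 to 5, against 188.9, 104.3, 102.4 and 45.7 CPM in WT 1 to 4. WT 1 was the highest library of all, as it was of the WT libraries for 29.9% of all tested genes, and WT 4 the lowest, with all E-cad-KO libraries between them (log2 fold change -0.44, SE 0.41, edgeR adjusted p = 0.661). Without WT 1 the log2 fold change was -0.04. Col7a1, the collagen of anchoring fibrils, held 129.3, 131.4, 152.1, 98.4 and 99.6 CPM in E-cad-KO 1 to 5, against 158.9, 133.6, 134.7 and 70.6 CPM in WT 1 to 4, again highest in WT 1 and lowest in WT 4 (log2 fold change -0.03, SE 0.22, and 0.12 without WT 1).

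Of the other transmembrane collagens Col25a1 stood at 25.8 ± 7.27 CPM in the E-cad-KO libraries (SD, n = 5) and 30.1 ± 5.10 CPM in WT (SD, n = 4). Col23a1 held 1.44, 0.389, 0.452, 0.451 and 0.591 CPM in E-cad-KO 1 to 5, against 0.798, 0.494, 1.2 and 3.94 CPM in WT 1 to 4. WT 4 was by far the highest library (log2 fold change -1.26, SE 0.62, edgeR adjusted p = 0.348), and without it the log2 fold change was -0.31. Col8a1 and Col8a2 encode short-chain network collagens, known from the cornea and vessel walls. Col8a1 was the steadiest collagen within WT, at 33.6 ± 4.21 CPM in the E-cad-KO libraries (SD, n = 5) and 33.5 ± 1.12 CPM in WT (SD, n = 4), whereas Col8a2 held 1.38 CPM in WT 1 and 10.5 CPM in WT 3.

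Type VI collagen forms beaded filaments around cells. Its main chains Col6a1, Col6a2 and Col6a3 were lowest in WT 1 and highest in WT 4 of the WT libraries, as Col3a1 was. Col6a3 held 44.8, 25.8, 49.3, 34.9 and 42.9 CPM in E-cad-KO 1 to 5, against 14.3, 23.0, 73.6 and 94.5 CPM in WT 1 to 4. WT 1 and WT 2 lay below every E-cad-KO library and WT 3 and WT 4 above every one of them. The log2 fold changes were -0.38 (SE 0.51) for Col6a3, -0.01 (SE 0.41) for Col6a1 and -0.12 (SE 0.49) for Col6a2, none of them called. Without WT 1 they stayed negative, at -0.68, -0.31 and -0.45, and without WT 4 they turned positive, at 0.10, 0.37 and 0.38. Col28a1, known from peripheral nerve, averaged under 1 CPM.

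The 8 collagens that did not pass the filter were Col6a4, Col6a5, Col6a6, Col10a1, Col13a1, Col19a1, Col22a1 and Col26a1. Their means over the 9 libraries ran from 0.00633 to 0.166 CPM, with 0.438 CPM as the highest value in any library, so differences between the groups were not detectable at this depth. All 8 had at least 1 count in some library.

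**Figure D3:**
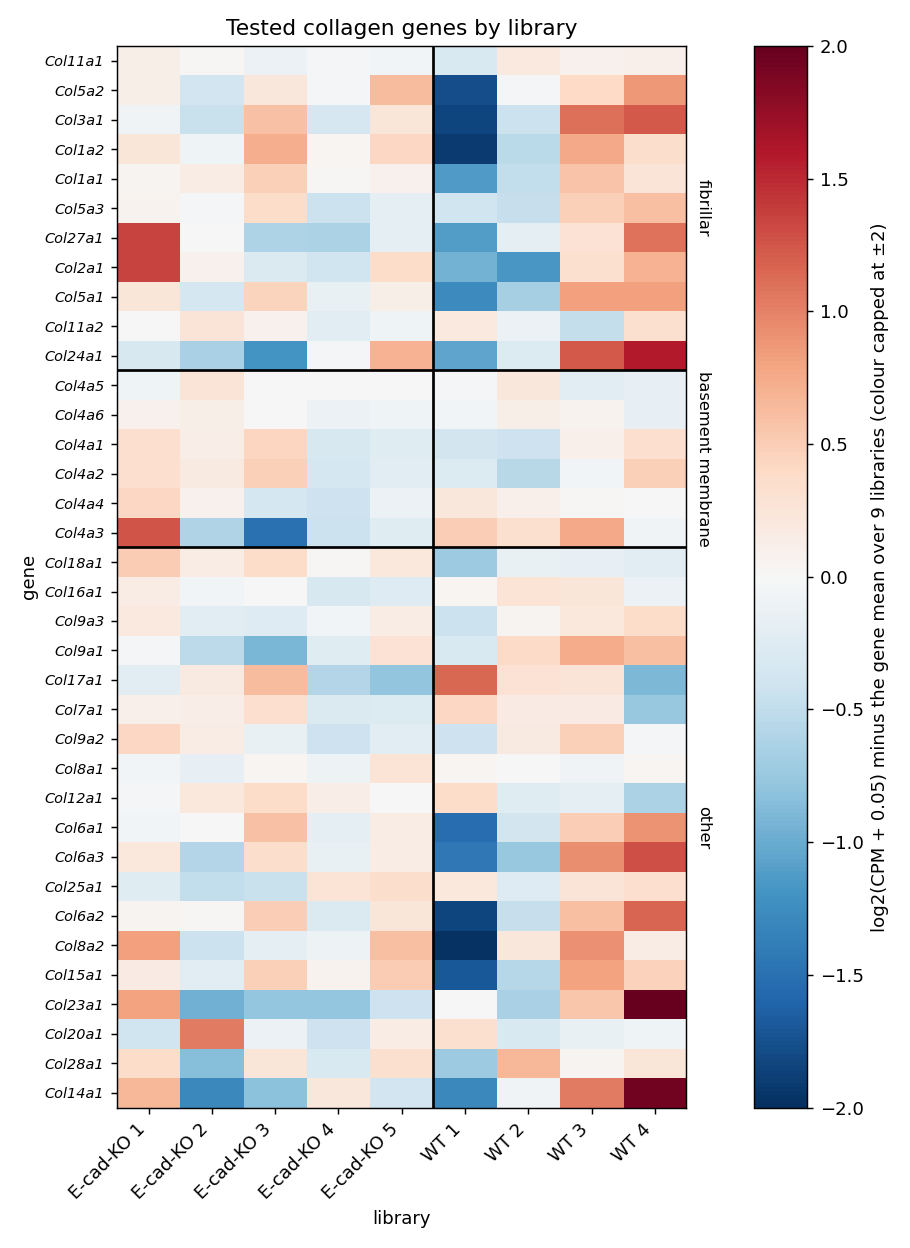
Rows are the 36 tested collagens by class and columns the 9 libraries, E-cad-KO left of WT. Colour is the log2 level of a gene relative to its mean over the libraries. The stromal genes such as Col3a1 and Col6a3 are lowest in WT 1 and high in WT 3 and WT 4, while Col17a1 is highest in WT 1 and lowest in WT 4.

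Most collagens were more spread within WT than within E-cad-KO. The SD of log2 CPM (prior count 2) was larger in WT than in E-cad-KO for 30 of 36 tested collagens, where the same was so for 62.3% of all tested genes. The median SD of the collagens was 0.33 in E-cad-KO and 0.54 in WT, beside 0.16 in E-cad-KO and 0.19 in WT over all tested genes. For the fibrillar genes it was 0.32 in E-cad-KO and 0.93 in WT, with 11 of 11 more spread in WT. For the basement membrane genes it was 0.34 in E-cad-KO and 0.28 in WT, although 4 of 6 were more spread in WT. Col4a3 and Col4a4, both low, were the members more spread in E-cad-KO. In the 4 basement membrane genes of at least 5 CPM the median was 0.23 in E-cad-KO and 0.28 in WT. All E-cad-KO libraries fell inside the WT range for 19 of 36 collagens, beside 20.9% of all tested genes. With WT 1 and WT 4 left out together, an alternative chosen after seeing the data, 16 of 36 were more spread in WT. The SD of a group rests on 4 or 5 libraries, and the difference in spread was not tested.

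The count was also made among genes of higher level. Among genes that averaged at least 5 CPM, 1 of 29 collagens differed at least 4-fold between its lowest and highest E-cad-KO library, and 11 of 29 did so between WT libraries. Over all 11227 such genes the shares were 0.623% in E-cad-KO and 1.93% in WT. The 11 collagens were Col1a2, Col3a1, Col5a1, Col5a2, Col6a1, Col6a2, Col6a3, Col8a2, Col15a1, Col17a1 and Col27a1, which was also the member counted in E-cad-KO. This count rested on WT 1: in alternatives chosen after seeing the data it was 1 of 29 without WT 1, 9 of 29 without WT 4 and 0 of 29 without both. Over all such genes the WT share was 0.855% without WT 1, 0.739% without WT 4 and 0.0534% without both. WT 1 was the lowest WT library for 19 of 36 tested collagens (28.4% of all tested genes), and WT 4 the highest for 18 of 36 (32.7% of all tested genes).

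**Figure D4:**
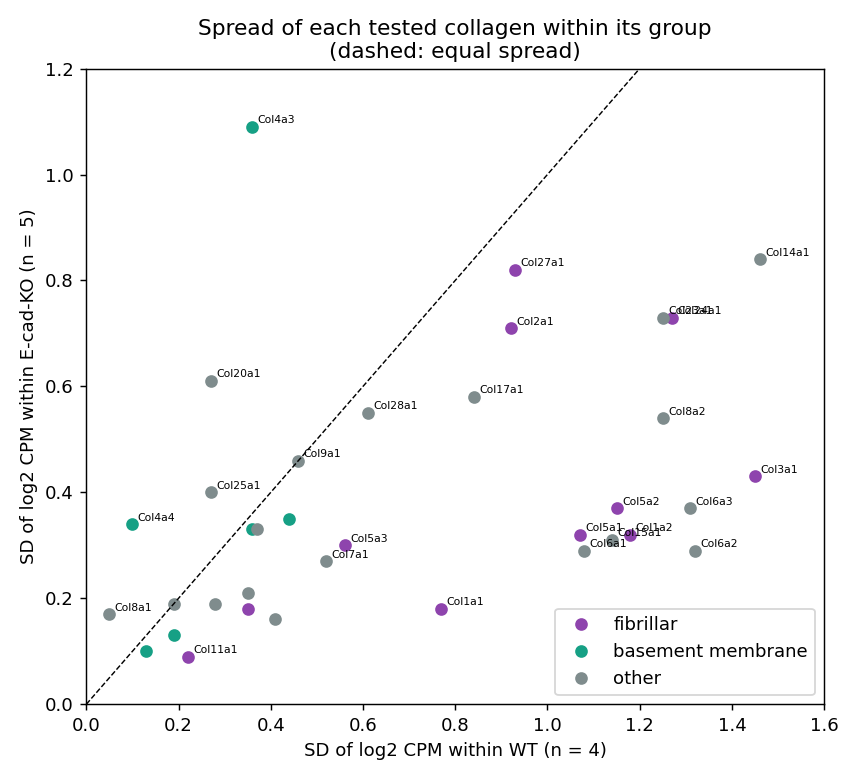
Each point is 1 tested collagen, with the SD of its log2 CPM within E-cad-KO on the y axis and within WT on the x axis, and the dashed line marks equal spread. Of the 36 points 30 lie below the line, and Col3a1 is at 0.43 in E-cad-KO and 1.45 in WT.

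Markers of fibroblasts, the main producers of stromal collagen, differed between the same WT libraries. All 18 of the list were tested and detected, 0 were called, and 15 of 18 had a negative log2 fold change with a median of -0.19. Their summed level was 1470.7 to 1909.3 CPM in E-cad-KO and 1128.8 to 2265.6 CPM in WT. Postn, a matrix protein gene, made up most of that sum. The other 17 members summed to 302.2, 289.0, 362.7, 281.4 and 298.6 CPM in E-cad-KO 1 to 5, against 202.8, 248.0, 418.2 and 503.4 CPM in WT 1 to 4. WT 1 and WT 2 were below and WT 3 and WT 4 above all E-cad-KO libraries, as for Col6a3. Of the 18 markers 13 were lowest in WT 1 and 11 highest in WT 4 among the WT libraries. Dcn, a proteoglycan of fibroblasts that binds collagen fibrils, held 12.9 CPM in WT 1 and 87.8 CPM in WT 4. Others went the other way: Cd34 was highest in WT 1 at 13.2 CPM, and Fbln1 and Fbln2 were lowest in WT 4 at 1.62 and 68.9 CPM. The part of fibroblast RNA in the collagen values was not tested.

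Of the other marker lists, 10 of 12 endothelial markers were tested and their sum was 7.1 to 13.0 CPM in E-cad-KO and 7.7 to 24.8 CPM in WT. The 6 pericyte markers summed to 57.7 to 81.4 CPM in E-cad-KO and 69.5 to 95.7 CPM in WT, mostly Notch3. Without Notch3 they summed to 10.4 to 22.0 CPM in E-cad-KO, against 7.9 CPM in WT 1 and up to 34.5 CPM in WT 4. The 14 macrophage markers summed to 347.4 to 415.8 CPM in E-cad-KO and 382.1 to 548.7 CPM in WT, with Cd14 as the most abundant member. Without Cd14 they summed to 27.2 to 158.6 CPM in E-cad-KO and 19.1 to 382.1 CPM in WT, highest in WT 4, where Lyz2 alone held 307.0 CPM. The adipocyte list was highest in WT 4 at 40.7 CPM, beside at most 9.8 CPM in any other library, nearly all of it Fabp4. The 4 Schwann cell markers summed to 100.9 to 126.5 CPM in E-cad-KO and 98.7 to 141.7 CPM in WT, mostly Sox10. No marker of these lists was at 0 in all libraries.

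The 9 myoepithelial markers, of the contractile basal layer of the gland, summed to 3677.4 to 8432.1 CPM in E-cad-KO and 2551.9 to 12480.5 CPM in WT. The highest library was WT 1 and the lowest WT 4, as for Col17a1 and Col7a1. Krt14 made up most of that sum, with 9280.0 CPM in WT 1. Among the WT libraries the keratin genes Krt5, Krt14 and Krt17 and also Trp63 were highest in WT 1 and lowest in WT 4. The other 5 of the 9 markers, Acta2, Myh11, Cnn1, Oxtr and Mylk, were lowest in WT 1. Acta2, a smooth muscle gene, held 35.0 CPM in WT 1 and 144.0 CPM in WT 4, its highest WT library. The part of basal cell content in Col17a1 and Col7a1 was not tested.

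With the fibroblast marker score of each library as a covariate, the median log2 fold change of the fibrillar collagens was 0.26, against -0.03 without it. Col1a2 stood at 0.69 (SE 0.17, edgeR adjusted p = 0.0649), Col1a1 at 0.43 (SE 0.13, edgeR adjusted p = 0.11) and Col15a1 at 0.55 (SE 0.17, edgeR adjusted p = 0.109). At an unadjusted p under 0.05 were 6 of 36 collagens, all higher in E-cad-KO, where 19.2% of all tested genes stood there. In this fit 1 collagen was called, Col18a1, beside 2.72% of all tested genes. The score comes from the same libraries as the collagens and is no independent measure of cell content.

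**Figure D5:**
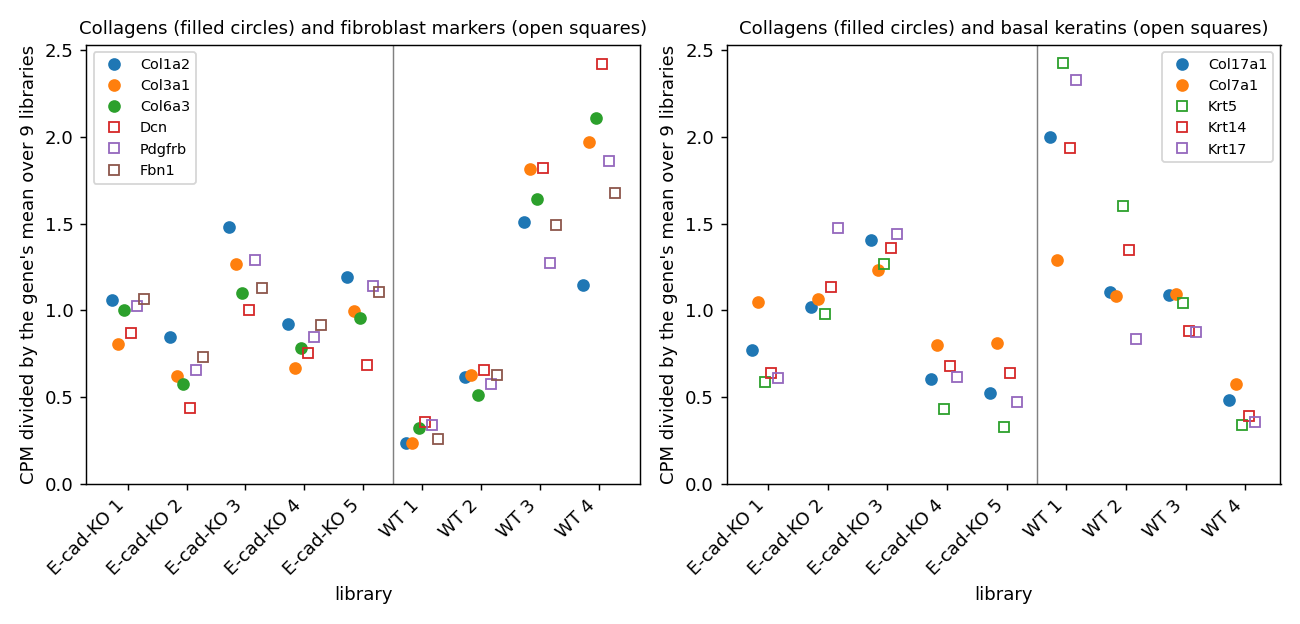
Each symbol is the CPM of a gene in 1 library divided by its mean over the 9 libraries, E-cad-KO left of WT. Filled circles are collagens. Open squares are Dcn, Pdgfrb and Fbn1 of the 18 fibroblast markers (left) or Krt5, Krt14 and Krt17 of the 9 myoepithelial markers (right). The genes shown were picked and do not stand for their lists. Of the WT libraries, Cd34 is highest in WT 1, and Fbln1 and Fbln2 are lowest in WT 4. Of the 9 myoepithelial markers, 5 are lowest in WT 1. In the left panel WT 1 is lowest for each gene shown, and in the right panel WT 1 is highest for each gene shown and WT 4 is the lowest WT library.

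Genes that make, process, bind and degrade collagen were counted beside the chains, and their counts of calls stand beside the 1.41% of all tested genes that edgeR called (0.908% higher and 0.503% lower). Enzymes and chaperones that fold and hydroxylate collagen chains had 20 of 20 tested, 0 called and a median log2 fold change of -0.01. The smallest p-values were those of Colgalt1, which adds galactose to collagen (0.31, SE 0.07, edgeR adjusted p = 0.0574), and Ppib, a folding enzyme (-0.18, SE 0.05, edgeR adjusted p = 0.11). The collagen chaperone gene Serpinh1 held between 297.0 and 318.0 CPM in E-cad-KO and between 242.0 and 335.0 CPM in WT.

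Of the genes for propeptide removal and crosslinking 13 of 14 were tested, with 1 called higher and 0 lower and a median of 0.06. The called gene was Loxl4, a lysyl oxidase that crosslinks matrix proteins. It held 16, 15.8, 20.3, 13.3 and 14.0 CPM in E-cad-KO 1 to 5, against 7.66, 8.73, 7.65 and 10.8 CPM in WT 1 to 4, with no overlap (log2 fold change 0.87, SE 0.15, edgeR adjusted p = 0.0324). Leaving out 1 library at a time gave 0.76 to 0.99, and the call was lost without any single library other than WT 4, at edgeR adjusted p of 0.0566 to 0.105. Adamts3, a protease that trims procollagen, held 7.08, 7.4, 6.94, 5.98 and 4.35 CPM in E-cad-KO 1 to 5, against 12.4, 11.6, 12.9 and 8.34 CPM in WT 1 to 4. It fell short of the threshold (log2 fold change -0.83, SE 0.18, edgeR adjusted p = 0.0502).

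Among collagen receptors 8 of 10 were tested and 0 called, where 1.41% of all tested genes were, with a median of 0.04. Ddr1, a receptor tyrosine kinase for collagen on epithelium, had the smallest p, at 92.4 ± 12 CPM in the E-cad-KO libraries (SD, n = 5) and 70.3 ± 4.03 CPM in WT (SD, n = 4) (log2 fold change 0.39, SE 0.09, edgeR adjusted p = 0.0683). It was followed by the integrin subunit gene Itgb1 (0.17, SE 0.08, edgeR adjusted p = 0.278). Collagen-degrading proteases had 10 of 10 tested and 0 called, with a median of -0.28. The smallest p-values were those of the membrane protease gene Mmp14 (0.31, SE 0.13, edgeR adjusted p = 0.252) and Mmp16 (-1.10, SE 0.69, edgeR adjusted p = 0.474).

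Small proteoglycans that bind fibrils had 5 of 9 tested and 0 called, with a median of -0.38, Lum at -0.96 (SE 0.56) and Prelp at 0.68 (SE 0.42). Of the laminins, nidogens and proteoglycans that share the basement membrane with type IV collagen 15 of 15 were tested and 0 called, with a median of 0.10. The laminin chain genes Lamb1 (0.50, SE 0.12, edgeR adjusted p = 0.0701) and Lamc1 (0.28, SE 0.11, edgeR adjusted p = 0.212) had the smallest p-values among them. Dcn, Lum, Fap and Mmp2 are counted both here and among the fibroblast markers.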

How the data were processed

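The authors deposited raw counts of reads per gene for 9 libraries. Per the submitters' processing notes Bowtie2, TopHat2, HTSeq and GRCm38 were used, and per the labels' protocols libraries were made with a stranded mRNA kit. Whether counting used the strand is not given in the sources used here. Genes were named, placed and given a length from the GENCODE annotation of the reference.

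Genes passing filterByExpr were fitted with edgeR 4.0.16 (R 4.3.3; TMM scaling, robust quasi-likelihood F-test, Benjamini-Hochberg adjustment over all 17289 tested genes, threshold 0.05) over all 9 libraries. Standard errors were taken from the fold change and F statistic. CPM used TMM-scaled library sizes. Alternatives were DESeq2 1.42.0, limma-voom (limma 3.58.1), other scalings and filters, a replicate block, a fibroblast marker score as covariate, and each library left out. The scripts were tested on simulated data.

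Genes described with values in every library were, per class, the 4 highest per length and the 3 smallest p-values; Col1a1, Col6a3, Col7a1, Col17a1, Loxl4 and Adamts3 were added after their values were seen. Members and gene lists were chosen with earlier results of these data known.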

Additional observations from a re-analysis of the deposited data

Results flagged for a closer look

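In 4 of 34 groups of collagen values, 1 library stood apart by its gap to the nearest library over the range of the group. Chance gives about 1 in 20 for a single group. The groups share the same 9 libraries, so 4 of 34 cannot be read against that rate. Col18a1 stood at 93.9 CPM in WT 1, below the other WT libraries at 134.9 to 139.9 CPM. Col23a1 stood at 1.44 CPM in E-cad-KO 1, above the other E-cad-KO libraries at 0.389 to 0.591 CPM. Col4a3 stood at 0.439 CPM in E-cad-KO 1, above the other E-cad-KO libraries at 0.0226 to 0.124 CPM. Col4a5 stood at 119.0 CPM in E-cad-KO 2, above the other E-cad-KO libraries at 94.2 to 100.4 CPM.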

How the results depend on the processing

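Over all tested genes edgeR's calls were 157 for higher and 87 for lower levels in E-cad-KO. The counts were 668 and 458 with DESeq2, 294 and 215 with limma-voom, 296 and 175 with the fibroblast marker score as covariate, 217 and 135 with a filter of 1 CPM in 4 libraries, and 123 and 151 with upper-quartile scaling. They were 48 and 31 without both WT 1 and WT 4. Leaving out 1 library at a time gave 8 to 193 higher and 1 to 141 lower, both lowest without WT 3. The cause of these shifts was not tested.

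Collagens called higher numbered 1 with DESeq2 and 1 with the covariate, Col18a1 each time, and 0 under every other alternative run. None was called lower under any. The number of collagens more spread in WT was 23 to 30 with 1 WT library left out and 16 without both WT 1 and WT 4. Of 29 collagens of at least 5 CPM, 11 differed at least 4-fold between WT libraries, 1 to 11 with 1 WT library left out and 0 without both WT 1 and WT 4. The median log2 fold change of the fibrillar collagens ran from -0.29 without WT 1 to 0.26 with the covariate.

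To look for pairing, the group mean of each gene was subtracted from its log2 CPM, and what remained was correlated between libraries of the 2 groups. Same-numbered libraries had correlations of -0.324 to 0.284 over 4 pairs, and differently numbered ones of -0.538 to 0.533. These are not correlations of the levels themselves. The values cannot show whether the numbers mark a shared day or preparation, and the labels do not say. With the replicate block 0 genes were called higher and 0 lower, and Col18a1 stood at 0.57 (edgeR adjusted p = 0.268). Low collagens such as Col4a3 are limited by their counts.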
